A study of Homo sapiens with 6 samples.

Results

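Long intergenic noncoding RNAs that carry a LINC number as gene symbol were followed in HuCCT1, a human cell line established from a cholangiocarcinoma, a cancer of the bile ducts. The table of counts per gene had 26485 rows, of which 876 had a symbol made of LINC and a number. The 181 LINC rows with 60 or more counts summed over the 6 libraries were taken as members, which were thus selected on their raw read counts alone. Another 451 LINC rows had 0 counts in all libraries, and 244 had 1 to 59 counts. Because of this rule, that the members were detected is a description and not a finding. The study compared a clone labelled wild type (WT, clone 1, 3 libraries a, b and c) with a clone in which AQP1, the gene of the water channel aquaporin-1, was targeted with CRISPR/Cas9 (KO, clone 22, 3 libraries a, b and c). Both were grown in DMEM-F12 with serum, L-glutamine and antibiotics, and polyadenylated RNA was sequenced from stranded libraries. The titles of all 6 libraries, those of WT included, name a CRISPR clone. Each genotype was 1 clone, so genotype and clone cannot be told apart. No label says whether a, b and c were grown separately. The p-values therefore rest on the spread of 3 libraries per clone that may share a culture. The question was what follows from the targeting of AQP1 in these cells.

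Long intergenic noncoding RNAs are transcribed from stretches between protein-coding genes, are usually spliced and polyadenylated, and are numbered when no function is known at naming. Most are kept at low levels and in few tissues, and some act on the gene next to them while others work away from their own locus. A few have since been found to encode small proteins, and their symbols have then been replaced. All 181 members matched a gene of the RefSeq annotation of GRCh38.p14, 138 by the current symbol and 43 by an older one. RefSeq listed 169 as long noncoding RNA, 10 as protein coding and 2 as pseudogenes. The spans of 28 members overlapped a protein-coding gene. Whether the counting used strand is not given in the sources used here, so reads of such a member and of its partner may not be told apart.

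The sharpest differences between the clones were transcripts present in one and nearly absent from the other. The stretch from 250 bases before to 50 bases after the RefSeq start (GRCh38.p14) is shown for 5 of them, since these windows hold the starts of the transcripts that were on in only 1 clone. LINC00664 (chr19:21483465-21483764, plus strand), LINC00540 (chr13:22210035-22210334, plus strand), LINC01508 (chr9:90433440-90433739, minus strand) and LINC01535 (chr19:37251635-37251934, plus strand) were on in KO. LINC01133 (chr1:159960974-159961273, plus strand) was on in WT only by the wider rule given below, of at most 10 counts in KO. Capitals mark CG dinucleotides, the sites at which DNA methylation mostly occurs in human cells.
LINC00664: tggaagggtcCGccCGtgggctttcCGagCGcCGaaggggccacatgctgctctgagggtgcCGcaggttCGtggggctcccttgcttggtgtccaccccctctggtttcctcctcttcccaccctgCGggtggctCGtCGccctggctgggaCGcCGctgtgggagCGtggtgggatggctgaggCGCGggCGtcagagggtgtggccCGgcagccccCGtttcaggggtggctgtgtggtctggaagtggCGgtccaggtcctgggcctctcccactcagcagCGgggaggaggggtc
LINC00540: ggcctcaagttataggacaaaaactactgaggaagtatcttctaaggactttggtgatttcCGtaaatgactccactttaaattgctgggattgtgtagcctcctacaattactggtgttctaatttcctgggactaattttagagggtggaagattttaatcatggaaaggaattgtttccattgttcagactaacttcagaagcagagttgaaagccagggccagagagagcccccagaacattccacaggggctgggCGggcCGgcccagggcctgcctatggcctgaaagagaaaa
LINC01508: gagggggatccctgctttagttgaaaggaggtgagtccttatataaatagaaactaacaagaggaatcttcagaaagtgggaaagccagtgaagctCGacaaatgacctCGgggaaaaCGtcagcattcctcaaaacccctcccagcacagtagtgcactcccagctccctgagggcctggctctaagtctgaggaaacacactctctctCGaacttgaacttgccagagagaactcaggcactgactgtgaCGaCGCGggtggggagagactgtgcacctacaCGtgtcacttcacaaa
LINC01535: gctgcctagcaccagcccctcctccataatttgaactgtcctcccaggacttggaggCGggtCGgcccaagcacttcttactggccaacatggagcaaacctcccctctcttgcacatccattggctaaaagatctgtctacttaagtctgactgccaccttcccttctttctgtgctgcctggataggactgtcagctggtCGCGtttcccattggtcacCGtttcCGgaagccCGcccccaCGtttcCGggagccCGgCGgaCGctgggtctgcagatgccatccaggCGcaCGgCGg
LINC01133: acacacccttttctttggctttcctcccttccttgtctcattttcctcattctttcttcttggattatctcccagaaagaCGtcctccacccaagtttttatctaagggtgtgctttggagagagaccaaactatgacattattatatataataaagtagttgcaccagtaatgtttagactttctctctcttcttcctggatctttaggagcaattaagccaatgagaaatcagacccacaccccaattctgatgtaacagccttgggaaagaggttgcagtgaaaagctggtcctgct
The LINC00664 window held 20 CG dinucleotides and that of LINC01535 held 15, against 8 for LINC01508, 3 for LINC00540 and 1 for LINC01133. The median was 12 over the 135 members with a window in the RefSeq table and 14 over all 27305 windows. The windows therefore share no common CG content, and no methylation was measured here.

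These windows were searched for CAGGTG, an E-box that repressors of the ZEB and SNAI families bind, which reads CACCTG on the opposite strand. They were also searched for TATAAA, which reads TTTATA on the opposite strand. The E-box letters stood in 23.7% of the member windows and in 20.6% of all windows. They were in 10 of 54 windows of members called higher in KO and in 8 of 22 windows of members called lower, by the test described below. Of the windows of members not called, 14 of 56 held them. These differences were not tested. TATAAA stood in 13.3% of member windows and 12.0% of all. The 5 windows shown did not hold the E-box letters, while that of LINC01002, on in WT by the wider rule below, held them once. TATAAA stood once in the window of LINC01508, 209 bases before the start. A match of letters is a description and shows no bound factor.

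In all, 7 members were on in KO and off in WT, where off means at most 3 counts summed over the 3 libraries of a clone. They were 3.87% of the 181 members, against 1.1% of all 14317 rows with 60 or more counts. Most of those rows are of more abundant genes, and the part of level in this difference was not tested. Symbol classes of a level like that of the members, described below, had 2.05% (antisense symbols) and 0.662% (LOC symbols). LINC00639 was the 1 member on in WT and off in KO (0.552%, against 0.217% of all such rows). Because a member needs 60 counts in all, a member off in one clone had to hold at least 57 in the other, so these differences are given as counts without a test. Ratios below are of summed counts scaled to the library totals, with exact 95% intervals that cover counting error only. LINC00664 had 2, 0 and 0 counts in WT and 120, 153 and 124 in KO, values being listed for libraries a, b and c in that order here and below. Its ratio of KO over WT was 207 (56.9 to 1713). LINC00540 had no count in any WT library and 84, 90 and 67 in KO. Against a floor of 3 counts over the WT group, its KO counts were 83.7-fold higher. That value leaves out the counting error of the KO counts and is no lower limit. In both transcripts each KO library lay far above all WT libraries.

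Of the other members on in KO, LINC01508 had 0, 0 and 2 counts in WT and 54, 47 and 52 in KO, a ratio of 79.7 (21.7 to 664). LINC01436 had 0, 0 and 2 counts in WT and 30, 60 and 62 in KO, a ratio of 79.2 (21.5 to 660). The KO libraries of LINC01508 were close to each other, while library a of LINC01436 had the fewest counts of its clone. LINC00504 went from 2, 0 and 0 to 53, 39 and 29 counts (ratio 63.0, 17.1 to 526). LINC00052, a transcript downstream of NTRK3, went from 0, 2 and 0 to 33, 24 and 38 (49.5, 13.3 to 414). LINC01535 went from 0, 1 and 0 to 15, 27 and 17 (61.4, 10.6 to 2468) and sat exactly on the 60-count threshold. None of the 7 had more than 2 counts in any WT library, and none had fewer than 15 in any KO library.

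LINC00639 had 342, 348 and 329 counts in the WT libraries and 2, 0 and 0 in KO, a ratio of WT over KO of 489 (135 to 4045). Its WT level was 8.25 ± 0.315 CPM (SD, n = 3), CPM being counts per 1000000 counts of the library. The nearest tested gene, SEC23A, which encodes a coat protein of secretory vesicles, lay 115037 bases away and was higher in KO (log2 fold change 0.84). With off widened to 10 counts, 10 members were on in KO (5.52%, against 1.89% of all rows with 60 or more counts) and 3 on in WT (1.66%, against 0.524%). The limit of level given above holds here too. The added transcripts on in KO were LINC01366 (2, 0 and 2 against 58, 47 and 42 counts), LINC01537 (2, 4 and 0 against 24, 42 and 45) and LINC01125 (1, 4 and 2 against 9, 32 and 20). Those added on the WT side were LINC01133 and LINC01002. LINC01133, reported in other cancers to bind splicing factors, had 148, 135 and 121 counts in WT and 5, 4 and 0 in KO, a ratio of WT over KO of 43.1 (22.5 to 94.9). Its span overlaps that of the gene SLAMF9, so reads of these genes may not be told apart. LINC01002 had 12, 29 and 19 against 6, 1 and 2 counts, so 6 counts separated the nearest libraries of the clones.

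**Figure D1:**
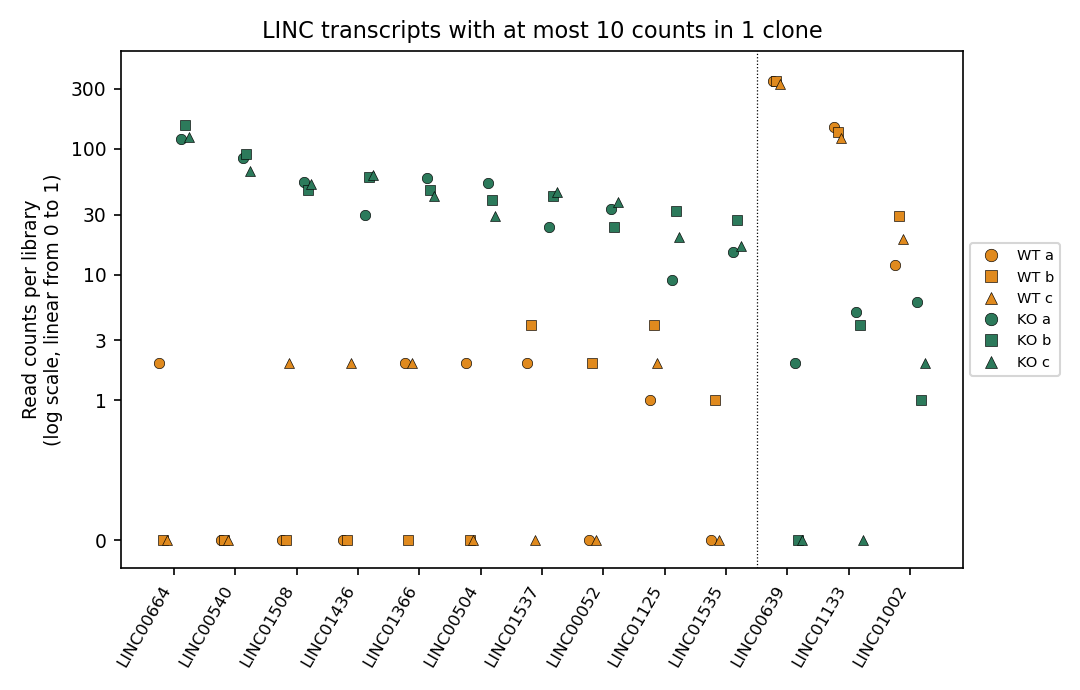
Read counts per library (vertical axis, logarithmic above 1 and linear from 0 to 1) of the 13 LINC transcripts with at most 10 counts in 1 clone, with WT libraries in orange and KO libraries in green, and circles, squares and triangles for libraries a, b and c. The 10 transcripts left of the dotted line were on in KO and the 3 to its right, led by LINC00639 with 329 to 348 counts per library, were on in WT.

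Counts this low had a peculiarity that bears on the intervals. In each library 771 to 838 rows had a count of 2 but only 373 to 428 had a count of 1, and 61.5 to 62.6% of counts from 1 to 20 were even, against 49.5 to 51.2% of counts of 1000 or more. Low counts thus came often in pairs, and the intervals, which assume independent counts, are too narrow. With all counts halved, the lower limit of the ratio was 36.6 for LINC00664 and 87.3 for LINC00639 (WT over KO). The lowest among the members on in KO was 7.68, for LINC01535.

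Most members were faint. The median over members of the mean CPM of the 6 libraries was 1.24, against 22.9 for all 14405 genes tested. Only 24 members reached 10 CPM, 82 lay between 1 and 10, and 75 below 1. The libraries held 36925338 to 41724447 counts, and 3 counts corresponded to 0.0719 to 0.0812 CPM. Replicate libraries of a clone differed more the fainter the member: the median coefficient of variation was 4.91% in WT and 5.00% in KO at 10 CPM or more, 13.9% and 15.7% at 1 to 10 CPM, and 36.0% and 30.2% below 1 CPM. Precision was thus lowest in the faint members.

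Together the members took a larger share of the KO libraries. The share was 0.106 ± 0.00148% of counts in WT and 0.128 ± 0.00138% in KO (SD, n = 3 each), and the groups did not overlap. A single transcript, LINC00657, gave 24.6 to 25.9% of member counts in WT and 28.9 to 30.7% in KO. Without it the shares were 0.0794 ± 0.000682% and 0.0901 ± 0.0019%. More members were also seen in KO: 175 to 176 had a count in a WT library and 178 to 180 in a KO library, and 165 to 170 against 175 to 179 had more than 3 counts. The rule that selected the members used these same counts. It admitted 7 members almost only through KO counts and 1 almost only through WT counts. These shares and tallies are therefore descriptions of the selected rows and are given without a test.

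LINC00657 is now named NORAD (chromosome 20, 36045618 to 36050960, GRCh38.p14), a cytoplasmic RNA that binds PUMILIO proteins and is known for keeping chromosomes stable. It had 276, 274 and 258 CPM in WT and 393, 380 and 376 CPM in KO, so every KO library lay above every WT library. The means were 269 ± 10.1 and 383 ± 9.12 CPM, a log2 fold change of 0.46 (SE 0.0311, edgeR adjusted p = 1.14e-08). LINC00941, the second by CPM, had 82.6, 82.5 and 82.9 CPM in WT and 84.3, 78.5 and 85.4 in KO. Its libraries overlapped and it did not pass (log2 fold change -0.05, edgeR adjusted p = 0.189). LINC01278 likewise overlapped between the clones, at 33.5 ± 2.43 and 35.4 ± 3.68 CPM (log2 fold change 0.02, edgeR adjusted p = 0.797).

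LINC00674 went the other way, from 59.4, 65.1 and 60.9 CPM in WT to 40.7, 38.2 and 37.6 CPM in KO, with no overlap (log2 fold change -0.72, SE 0.0548, edgeR adjusted p = 3.5e-08). LINC00152 is now CYTOR, an RNA named for its tie to the cytoskeleton. It had 32.1, 30.5 and 31.3 CPM in WT and 34.1, 38.4 and 34.6 in KO, and did not pass although the groups did not overlap (log2 fold change 0.13, edgeR adjusted p = 0.0655). LINC01116, which lies near the HOXD genes, had 14.9, 15.2 and 16.3 CPM in WT and 29.7, 31.8 and 31.3 in KO, far from overlapping (log2 fold change 0.95, SE 0.0599, edgeR adjusted p = 5.2e-09).

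**Figure D2:**
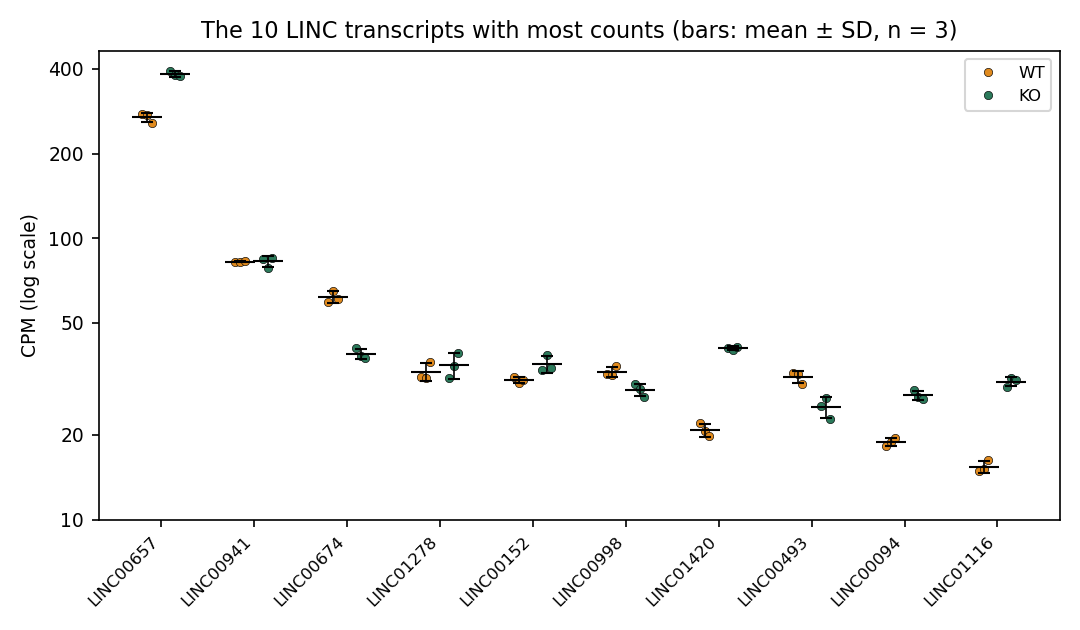
CPM per library (logarithmic axis) of the 10 LINC transcripts with the highest mean CPM, with WT in orange, KO in green, and black bars for the mean ± SD of 3 libraries. LINC00657 stands far above the rest at 258 to 276 CPM in WT and 376 to 393 in KO, LINC00674 is lower in KO, and LINC00941 and LINC01278 overlap between the clones.

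Levels of different genes are comparable only per length. Exon lengths from GENCODE 29 were found for 168 members, with a median of 2857 bases, and the annotation used for the counting is not given in the sources used here. On the scale of CPM per 1000 bases, averaged over the 6 libraries, LINC00674 came first at 68.5 and LINC00657 second at 61.1. LINC00941, the second by CPM, had no such length and is not in this order. The first 2 were followed by LINC00493 at 26.1, LINC01420 at 18.0, LINC00998 at 16.5 and LINC01116 at 13.0. LINC00674 was 84.1 in WT and 52.9 in KO on this scale and LINC00657 50.4 and 71.8, so with these lengths their order was opposite in the clones. The length used for LINC00674 was 734 bases, from a GENCODE gene typed as a transcribed unprocessed pseudogene, while RefSeq lists a long noncoding RNA. Its first place and the order in each clone depend on that length.

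Genes were tested between the clones with edgeR's quasi-likelihood test, with p-values adjusted over all 14405 tested genes by the Benjamini-Hochberg method and a threshold of 0.05. The filter on low counts kept 176 of the 181 members, and 99.5% of all rows with 60 or more counts. Of the 176 tested, 100 passed the test (56.8%, beside 74.4% of all tested genes), 70 of them higher in KO and 30 lower, and 76 did not pass. The 70 were 39.8% of tested members, beside 37.1% of all tested genes, so the share that was higher lay near the background. The 30 were 17.0%, beside 37.2%. The median log2 fold change was 0.35 over tested members and 0.01 over all tested genes. At 2-fold or more, 46 members were higher (26.1%, beside 13.7%) and 14 lower (7.95%, beside 9.05%). Groups did not overlap in CPM for 116 tested members (65.9%, beside 77.3%).

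The same shares were taken among genes of like level. Among the 70 tested members below 1 CPM, 27 were higher and 6 lower, 38.6% and 8.57%, beside 33.6% and 15.1% of all tested genes at that level. Of the 82 members from 1 to 10 CPM, 33 were higher and 16 lower, 40.2% and 19.5%, beside 41.5% and 26.3%. Of the 24 members at 10 CPM or more, 10 were higher and 8 lower, 41.7% and 33.3%, beside 36.3% and 45.6%. The median absolute log2 fold change was 1.01 in members and 1.04 in all genes below 1 CPM, 0.67 and 0.74 from 1 to 10 CPM, and 0.48 and 0.36 at 10 CPM or more. The filter also let in members through the clone where they were high: 14 tested members had fewer than 10 counts in every WT library and all were higher, and 5 had fewer than 10 in every KO library and all were lower. In the other 157 tested members, 56 were higher and 25 lower. The 5 members that did not pass the filter were LINC00271, LINC00969, LINC01125, LINC01312 and LINC01554, with at most 33 counts in any library.

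**Figure D3:**
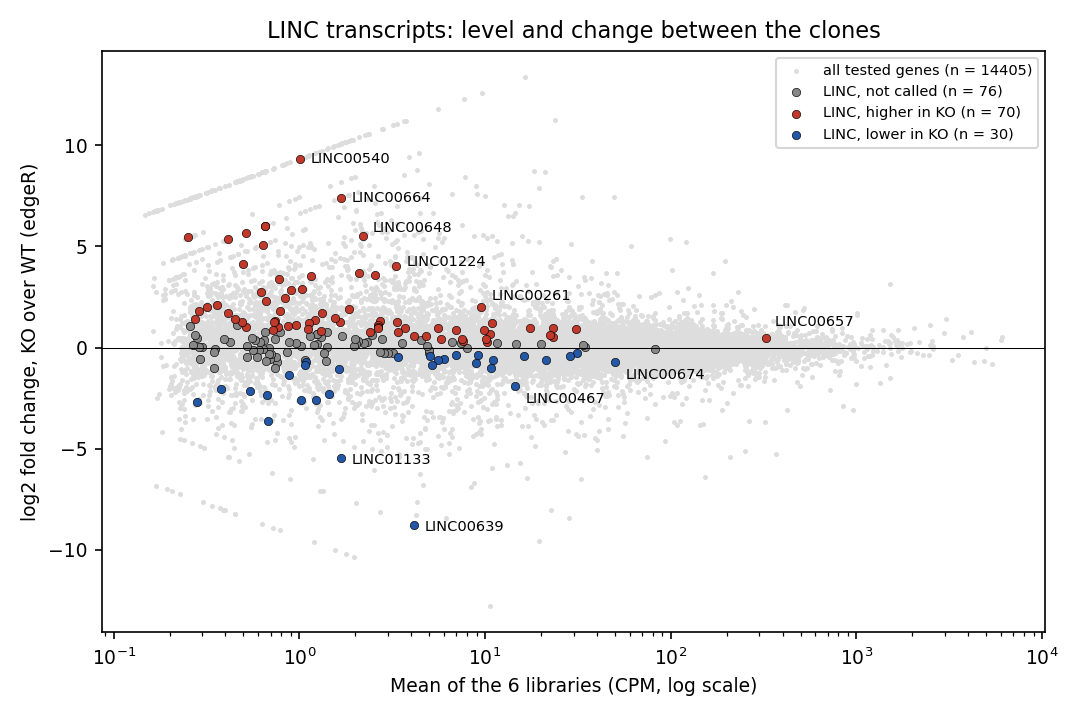
Log2 fold change of KO over WT against the mean CPM of the 6 libraries (logarithmic axis), with all 14405 tested genes in light grey and LINC transcripts as circles in red (70 higher in KO), blue (30 lower) or dark grey (76 not called). Most LINC transcripts lie left of 10 CPM, where the spread of all genes is wide, and LINC00540 and LINC00639 mark the ends of their range.

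Among members with at least 1 CPM in both clones, LINC00261 rose most. It is transcribed next to FOXA2, a transcription factor of endoderm and liver, and is known from endoderm differentiation. It had 155, 139 and 159 counts in WT and 651, 610 and 573 in KO, so each KO library had more than any WT library. In CPM this was 3.67 ± 0.262 and 15.5 ± 0.519 (log2 fold change 2.02, SE 0.101, edgeR adjusted p = 4.3e-10). FOXA2, 2356 bases away, also rose, from 24.4 ± 1.58 to 56.4 ± 2.11 CPM (log2 fold change 1.16).

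LINC00673, known from a pancreatic cancer risk locus, rose from 247, 259 and 286 counts to 621, 654 and 560 (log2 fold change 1.22, edgeR adjusted p = 2.43e-08). LINC00511 lies 5237 bases from it and had 47, 37 and 27 counts in WT and 42, 24 and 30 in KO, overlapping. The remaining large rises at this level were LINC00342 (1.29 on the log2 scale), LINC00476 (1.25), LINC00909 (1.10) and LINC00460 (1.02). LINC00342 went from 1.54 ± 0.314 to 3.91 ± 0.168 CPM and LINC00460 from 1.71 ± 0.529 to 3.60 ± 0.263 CPM, without overlap. All 6 passed the test.

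LINC00467, in which a small mitochondrial protein has been described, fell most among members with at least 1 CPM in both clones. It had 936, 1019 and 863 counts in WT and 277, 227 and 242 in KO, or 22.8 ± 2 and 6.30 ± 0.657 CPM (log2 fold change -1.91, SE 0.0949, edgeR adjusted p = 3.85e-10). The clones did not overlap. LINC01518 fell by 1.07 on the log2 scale, LINC01123 by 1.01, LINC01322 by 0.87 and LINC00886 by 0.75. LINC01123 went from 574, 600 and 583 counts to 279, 316 and 277. LINC00886 overlaps a pseudogene, PA2G4P4, whose log2 fold change was -0.42.

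Larger changes were seen in fainter members, and those in this paragraph were chosen after their values were seen, apart from LINC00520 and LINC01234. LINC00648 had 3, 6 and 2 counts in WT and 186, 182 and 143 in KO. LINC01139 had 17, 15 and 14 counts in WT and 209, 162 and 189 in KO. In both, all KO libraries lay above all WT libraries, and the log2 fold changes were 5.49 and 3.60. LINC00520 rose from 6, 4 and 12 to 114, 69 and 71 counts (log2 fold change 3.51), and LINC01234 from 10, 4 and 12 to 76, 73 and 43 (2.86). Among falls, LINC00884 went from 71, 102 and 86 counts to 20, 9 and 13 (-2.61), LINC00865 from 65, 85 and 65 to 18, 12 and 6 (-2.57), and LINC00896 from 94, 91 and 110 to 20, 19 and 21 (-2.28). None of these falls overlapped between the clones, and all 7 transcripts passed the test.

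Several LINC symbols that recur in cancer studies moved little or not detectably. LINC00857 had 18.2 ± 1.15 CPM in WT and 14.1 ± 1.54 CPM in KO, a fall that passed (log2 fold change -0.43, edgeR adjusted p = 0.000465), and LINC00665 rose from 6.35 ± 0.591 to 8.69 ± 0.403 CPM (0.40, edgeR adjusted p = 0.00545). LINC00472 passed narrowly with overlapping libraries, at 423, 386 and 448 counts in WT and 297, 256 and 395 in KO (-0.39, edgeR adjusted p = 0.0399). Its call was lost without WT library a, WT library c, KO library a or KO library b, with log2 fold changes between -0.38 and -0.23, and with library totals alone as scaling (-0.34). LINC00707, LINC00963, LINC00662, LINC00324 and LINC01503 did not pass, with log2 fold changes of 0.16, 0.23, 0.32, 0.48 and 0.01. LINC00473, LINC00958, LINC00663, LINC00839 and LINC00461 were below the threshold of 60 counts, with 29, 12, 32, 33 and 1 in all, and LINC00668 and LINC01320 had 0.

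The 10 members with a protein-coding RefSeq record divided 4 higher, 4 lower, 1 not passing and 1 not tested. LINC01420 is now NBDY, whose small protein binds the mRNA decapping complex. It had 22.0, 20.7 and 19.8 CPM in WT and 40.9, 39.9 and 41.1 in KO, the KO libraries lying close together and far above WT (log2 fold change 0.91, SE 0.0581, edgeR adjusted p = 5.65e-09). LINC00094, now BRD3OS, rose from 18.9 ± 0.651 to 27.7 ± 1.08 CPM (0.49). It overlaps BRD3, a bromodomain protein gene, whose log2 fold change was 0.51.

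LINC00998 and LINC00493, now SMIM30 and SMIM26, encode small integral membrane proteins, and both fell. LINC00998 had 33.0, 32.6 and 35.1 CPM in WT and 30.3, 29.2 and 27.3 in KO (log2 fold change -0.27, edgeR adjusted p = 0.00123). LINC00493 had 33.3, 32.9 and 30.3 CPM in WT and 25.4, 27.0 and 22.8 in KO (-0.41, edgeR adjusted p = 0.000116). Neither overlapped between the clones. LINC00116, now MTLN, encodes mitoregulin of the inner mitochondrial membrane. It fell from 237, 209 and 260 to 202, 183 and 138 counts (-0.43, edgeR adjusted p = 0.0186). That call was lost without WT library a, WT library c or KO library c, with log2 fold changes between -0.42 and -0.31.

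LINC00959, now C10orf143, had 57, 39 and 59 counts in WT and 0, 8 and 4 in KO (log2 fold change -3.65, edgeR adjusted p = 6.44e-05). Without KO library b the log2 fold change was -4.56 and without KO library a it was -3.05. LINC01279 and LINC00341 are older symbols of CCDC80, a secreted matrix protein gene, and of SYNE3, the gene of nesprin-3 in the nuclear envelope, and the table had separate rows for these genes. LINC01279 rose by 0.99 on the log2 scale and the CCDC80 row by 0.54, from 123 ± 2.17 to 186 ± 3.27 CPM. LINC00341 rose by 2.90, from 11, 2 and 16 to 62, 92 and 64 counts, and the SYNE3 row by 1.32. How reads were divided between such rows is not given in the sources used here. LINC01207, now SMIM31, did not pass (-0.45), and LINC01125, now C2orf92, was not tested. Of the 2 pseudogene records, LINC01296 is DUXAP9, which has near-identical copies that may share its reads. It did not pass (0.15, edgeR adjusted p = 0.0533), although the clones did not overlap, and it passed under other settings given below. The other, LINC00643, did not pass either (-0.60).

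Since some of these RNAs act on or move with neighbouring genes, each member was set beside the genes around it. A neighbourhood was the median log2 fold change of the tested genes without a LINC symbol within 1 Mb, with at least 3 such genes. Genes that overlap the member were included, so shared reads may enter. Of 163 members with a neighbourhood, 97 (59.5%) had its sign, and of 13575 other tested genes 8561 (63.1%) did. The same sign was seen for 41 of 63 members that were higher and 20 of 29 that were lower. Across the 163 members, r was 0.37 and rho 0.40 between member and neighbourhood, a description since members share neighbours and all values come from the same 6 libraries. In total 53 members lay more than 1 log2 unit from their neighbourhood, 35 above and 18 below it.

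In 11 members the neighbourhood median was above 1, and 8 of these were higher and 1 lower. Of the 205 tested genes without a LINC symbol in such neighbourhoods, 65.4% were higher and 17.6% lower. Of the 11 members, 5 were on chromosome 19, where 6 of 8 members were higher and 1 was lower, beside 44.9% and 27.4% of the other tested genes there. LINC00664 lies 2364 bases from ZNF429, a zinc finger gene, which had 0 counts in WT and 89, 73 and 104 in KO. LINC01224, which had 10, 19 and 16 counts in WT and 254, 207 and 279 in KO, lies 3762 bases from ZNF91, a zinc finger repressor of transposable elements. ZNF91 had 22, 15 and 28 counts in WT and 283, 319 and 282 in KO. Each of these 4 genes had far more counts in every KO library than in any WT library.

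The neighbourhood medians of LINC00664, LINC01224 and LINC01535 were 3.58, 4.65 and 4.45, and those of LINC01534 and LINC01530 were 1.15 and 1.14. The nearest gene need not show it: ZNF383, 3145 bases from LINC01535, did not pass (0.64). Conversely ZFP14, 2700 bases from LINC00665, went from 0, 2 and 0 to 76, 121 and 72 counts, while LINC00665 changed by 0.40. On chromosome 18, 5 of 6 members were higher and the sixth, LINC00667, did not pass, while 39.4% of the other tested genes there were higher and 32.1% lower. LINC01443 and LINC01444, which overlap and share the same 4 neighbours, rose by 3.37 and 3.68 in a neighbourhood with a median of 9.25. Without WT library b the value of LINC01444 was 4.44. ANKRD30B, 5132 bases from LINC01443, had 0 counts in WT and 211, 222 and 227 in KO. LINC01184 was the member that was lower in such a neighbourhood, at -0.61 against 1.77.

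In 12 members the neighbourhood median was below -0.5. Of these, 7 were lower and the rest did not pass, and 66.8% of the 1249 other tested genes in such neighbourhoods were lower. Single pairs went both ways. LINC00648 and MDGA2, 89348 bases apart, rose together, MDGA2 from 3, 4 and 5 to 202, 182 and 256 counts. LINC00540 and FGF9, a growth factor gene 505787 bases away, were both at 0 in WT, with 18, 21 and 27 counts of FGF9 in KO. LINC01578 is CHASERR, known in mice to restrain its neighbour CHD2, a chromatin remodeller, and both rose, by 0.62 and 0.70. LINC01133 and SLAMF9, whose spans overlap, both fell, SLAMF9 by 2.44, but their reads may not be told apart.

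Other pairs moved apart. LINC01508 was on in KO while SYK, a kinase gene 368111 bases away, fell from 1676, 1643 and 1828 to 134, 165 and 125 counts. LINC01152 rose by 1.34 while SOX9, a transcription factor of bile duct cells 79723 bases away, fell by 1.14. Among 12 pairs of members within 100 kb of each other, 7 had the same sign. LINC00526 and LINC00667 start 71 bases apart, and the first rose by 1.25 while the second, at 7.83 ± 0.568 and 8.12 ± 0.989 CPM, did not pass. Without KO library a the call of LINC00526 was lost (edgeR adjusted p = 0.0661).

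**Figure D4:**
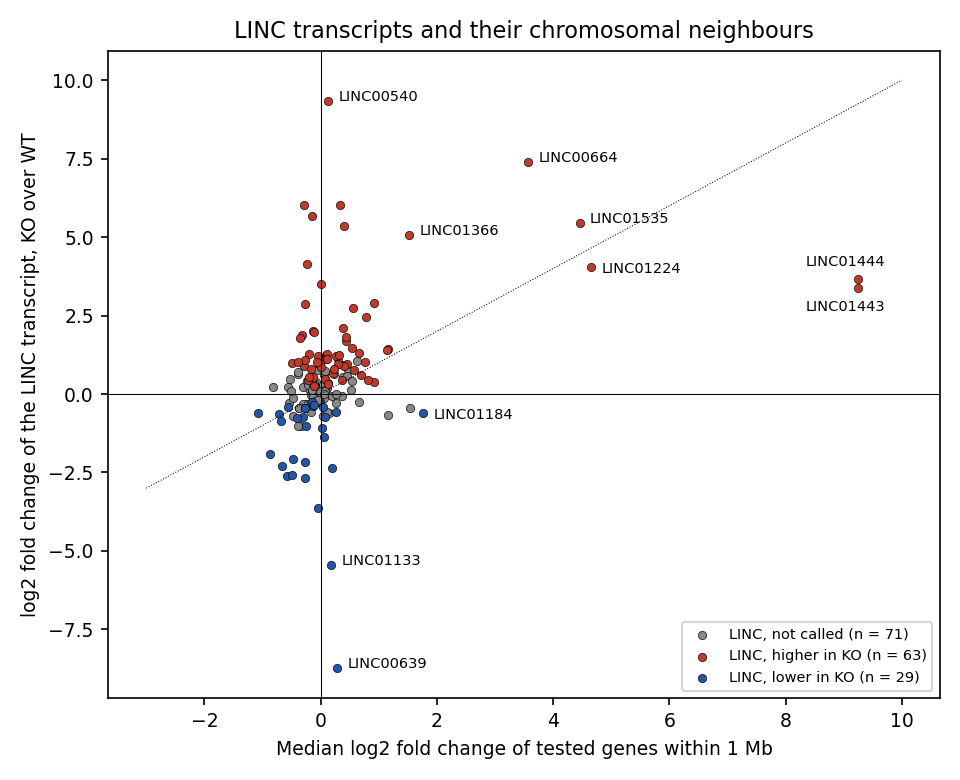
Log2 fold change of each of 163 LINC transcripts against the median log2 fold change of the tested genes within 1 Mb, coloured by call, with a dotted line where both are equal. Most points lie at neighbourhood medians close to 0, while LINC00664, LINC01224, LINC01535, LINC01443 and LINC01444 lie far to the right and high, and LINC00540, LINC00639 and LINC01133 changed in neighbourhoods near 0.

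Other classes of noncoding symbols were set beside the members, each with 60 or more counts. Of tested members, 39.8% were higher and 17.0% lower. Antisense symbols had 26.0% and 22.1% of 339 tested, and LOC symbols 30.6% and 20.5% of 297. Hosts of small nucleolar RNAs (SNHG symbols), which are processed into snoRNAs as well as spliced RNA, had 1 higher and 13 lower of 20. Rows on in KO and off in WT were 7 of 181 among members, 7 of 341 among antisense symbols and 2 of 302 among LOC symbols. All other symbols had 37.5% higher and 38.4% lower of 13391 tested, and 141 of 13452 rows on in KO and off in WT. The classes also differed in level. The median CPM was 1.24 in members, 1.09 in antisense, 1.03 in LOC, 11.2 in SNHG and 26.9 in all other symbols. Neither these differences between classes nor the part of level in them was tested.

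**Figure D5:**
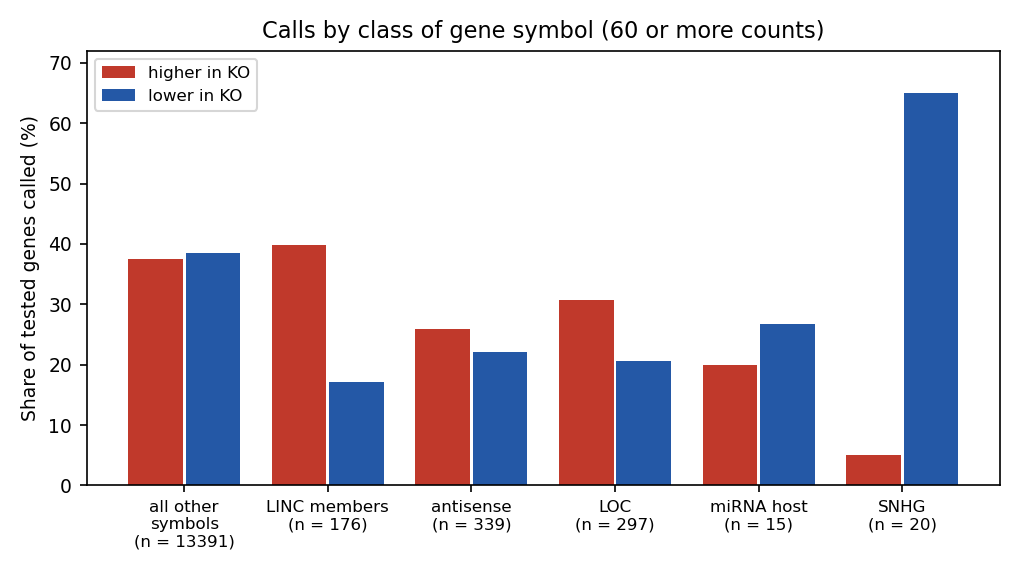
Percentage of tested genes called higher (red) and lower (blue) in KO by edgeR at an adjusted p under 0.05, by class of gene symbol, with the number tested under each class. LINC members have 39.8% higher and 17.0% lower, while SNHG symbols have 5% higher and 65% lower, beside 37.5% and 38.4% of all other symbols.

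Of 45 well-known long noncoding RNAs with other names, 29 were tested, with 9 higher and 9 lower and a median log2 fold change of 0.18. The largest rises were LUCAT1 (3.08) and HOTTIP (1.46), and the largest falls MIR205HG (-4.26), host of the epithelial miR-205, and UCA1 (-2.91). UCA1 had 1479 ± 48.5 CPM in WT and 205 ± 14.9 in KO, and its WT value was above that of every LINC member. KO library c stood apart in MALAT1, with 5138, 4955 and 10380 counts in the KO libraries, and in NEAT1, with 19290, 20097 and 41736. Among members of 1 CPM or more, 5 were over 1.5 times both other KO libraries in library c, while 2 to 3 were so in each of the other 5 libraries within its clone. Over all tested members the number was 10 in KO library c and 7 to 13 in the others. The 5 were LINC00893, LINC00894, LINC00654, LINC01011 and LINC00669. LINC00893 had 138, 115 and 256 counts in KO and passed at a log2 fold change of 0.79, and without KO library c it was 0.32 and did not pass (edgeR adjusted p = 0.154). Without KO library c, 70 members were higher and 30 lower.

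The threshold of 60 counts cut through a continuous range. Just inside it were LINC00562 with 62 counts, LINC01312 with 61 and LINC01535 with 60. Just outside were LINC00908 with 57, LINC01085 with 56 and LINC00852 with 52. LINC01085 had no count in WT and 22, 17 and 17 in KO, so on-off patterns did not stop at the threshold.

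As for the cells, AQP1 itself had 2, 8 and 10 counts in WT and 10, 7 and 7 in KO, too few to be tested. That is 0.161 ± 0.0993 CPM in WT and 0.202 ± 0.0384 CPM in KO, so the transcript was scarce in both clones and not lower in KO. An edited gene may keep its transcript, so this does not check the labels. Of 10 cholangiocyte or epithelial markers (such as KRT7, KRT19 and EPCAM), 9 were tested, 8 were lower and 1 was higher in KO, and their summed level was 6579 to 6624 CPM in WT and 2786 to 2861 CPM in KO. Hepatocyte markers summed to 52.2 to 55.9 CPM in WT and 87.1 to 94.2 in KO (4 of 9 higher, TTR and APOB at 0), fibroblast markers to 15.9 to 18.1 and 35.5 to 38.4 (4 of 8 higher), and neuronal markers to 18.8 to 20.5 and 94.8 to 104 (2 of 5 higher). Immune markers summed to 107 to 113 and 204 to 211 CPM, with PTPRC at 0 and 2 of 6 higher. Endothelial markers stayed at 2.09 to 2.47 and 2.15 to 3.06 CPM, and 3 of 5 germ cell markers (DAZL, PIWIL1 and PRM1) were at 0. The part of these marker differences in the LINC results was not tested. In bulk RNA, fewer cells with a transcript and less of it per cell cannot be told apart.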

How the data were processed

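Polyadenylated RNA of 6 HuCCT1 libraries was analysed from 1 table of read counts per gene symbol that the authors deposited, as whole numbers that were not normalized. The submitters' processing notes name HISAT2, Trimmomatic 0.33, FastQC and edgeR, with build hg38. How reads were counted, with which strand setting and annotation, is not given in the sources used here. Groups and letters came from the labels. Members, gene lists and the rule for named genes were chosen with earlier results of these data known. Named were the 10 highest mean CPM, the on-off members, the 6 largest changes each way among called members with at least 1 CPM in both clones, members with protein-coding records, a list of known LINC symbols, members at the threshold and the 5 most abundant not called; other names were chosen after their values were seen. After filterByExpr, edgeR 4.0.16 (R 4.3.3) was run on all genes kept (TMM, quasi-likelihood F test, no covariate, Benjamini-Hochberg adjustment). No replicate pair agreed within sampling noise (chi-square of 4.18 to 7.6 per degree of freedom). Symbols, coordinates and promoter windows came from RefSeq (GRCh38.p14), where 25294 rows matched, and exon lengths from GENCODE 29. The fit was tested on simulated data. Alternatives included RLE factors, library totals, other filters, DESeq2 1.42.0, limma-voom 3.58.1, a replicate block and leaving out each library. All counts were also halved, an alternative chosen after seeing the data. Intervals cover counting error only, and the floor covers that of the WT counts only.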

Additional observations from a re-analysis of the deposited data

How the results depend on the processing

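Counts of called members were 70 higher and 30 lower in KO. They were 74 and 30 with RLE factors, 80 and 27 with library totals alone (which moved the median log2 fold change of all genes to 0.06), 73 and 33 with no filter, 54 and 24 at 1 CPM in 3 libraries, 71 and 28 with DESeq2, 70 and 30 with limma-voom and 71 and 31 with halved counts, the last chosen after seeing the data. Tested against a 1.5-fold change (glmTreat), 42 members were higher and 16 lower, and 4354 of all genes passed in place of 10711. Leaving out members that overlap a coding gene or are no RefSeq long noncoding RNA, also chosen after seeing the data, left 59 higher and 19 lower. Leaving out 1 library gave 68 to 74 higher and 26 to 30 lower.

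With the letter as a replicate block, 66 members were higher, 29 lower and 10599 of all genes called. Deviations of same-letter libraries correlated at 0.058, -0.019 and 0.008, and those of different letters at -0.050 to 0.041. No label says whether libraries of the same letter were prepared together, and these values cannot decide it.

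With off meaning 0 counts, 1 member was on in KO and 0 on in WT; with up to 10 counts, 3 were on in WT. Among LINC rows with 30 or more counts, 11 were on in KO and 2 on in WT. Leaving out 1 library gave 1 to 2 on in WT, the 2 without KO library a. The sign of the neighbourhood was shared by 96 to 104 members without 1 library, by 67 of 106 at 250 kb, by 107 of 176 at 5 Mb and by 109 of 176 for the nearest gene alone.

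For 47 named members, 743 values under alternatives were compared. The 1.5-fold test and an adjusted p threshold of 0.01 reuse the main log2 fold changes, so direction could not change there. Many of these members were also named for large changes, which favours agreement. Of the 743 values, 699 kept direction and side of the threshold, 19 lost the call and 19 gained one. The other 6 changed sign, all in members that had not passed. These were LINC00941 with library totals alone (0.0011) and 3 members when 1 library was left out, with ranges of -0.41 to 0.0099 for LINC00511 (above 0 without WT library a), -0.033 to 0.10 for LINC01278 (below 0 without WT library a, WT library b or KO library c) and -0.052 to 0.055 for LINC01503 (below 0 without WT library b). LINC00152 passed under RLE factors, library totals, the 1 CPM filter, halved counts, DESeq2, limma-voom and without KO library a or c. LINC01296 passed under RLE factors, library totals, the 1 CPM filter, halved counts and without WT library a, KO library a or KO library c. LINC00707 and LINC00963 passed with library totals alone and without WT library b. The cause of these shifts was not tested. Below 1 CPM, where counts are few and replicates vary most, 37 of 70 tested members did not pass, and how far depth set this was not tested. LINC00472 lost its call with library totals alone.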
